A study of Bos grunniens with 6 samples.

Results

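miR-183, miR-96 and miR-182 form a cluster of 3 miRNAs that are cut from one primary transcript. They were taken by name from the deposited table, where they stand under the cattle names bta-miR-183, bta-miR-96 and bta-miR-182, ignoring any arm suffix. The rule found 3 of 2853 entries, 1 per member. The table comes from small-RNA sequencing of wild-type yak (Bos grunniens) skin cells in culture. One group was dermal papilla cells, labelled as dermal cells, the mesenchymal cells that sit in the bulb of the follicle. The other was hair matrix cells, labelled as epidermal cells, which are the dividing epithelial cells around the papilla from which the hair shaft grows. There were 3 libraries for each cell type. The labels call them biological replicates and name no animals or cultures, so the p-values cover only the spread among these libraries, which may be technical. All cells were grown in DMEM/F12 with IGF1, EGF and fetal serum. The series title names the comparison of expression profiles between the 2 cell types as its purpose.

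A miRNA guides Argonaute proteins to messenger RNAs by pairing of its seed, the bases near its 5′ end, and lowers the output of those messages. The cluster is best known from sensory organs, where it is abundant in photoreceptors and in the hair cells of the inner ear, and changes in the seed of miR-96 cause hearing loss. It is also expressed in epithelia and raised in many carcinomas, miR-96 and miR-182 are known to repress FOXO1, and ZEB1, a repressor of epithelial genes, is known to repress miR-183 as well as the miR-200 family.

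The mature sequences are shown because the members' seeds decide how far they can stand in for each other. They are written 5′ to 3′ as the deposited table gives them, with T for U and the seed (bases 2 to 8) in capitals. miR-1271, which lies outside the cluster, is added because it carries the seed of miR-96.

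miR-183: tATGGCACtggtagaattcactg
miR-182: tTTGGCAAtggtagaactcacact
miR-96: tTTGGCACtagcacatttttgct
miR-1271: cTTGGCACctagtaagtactca

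The members are close relatives at the 5′ end and differ in their seeds. Counting from 1 at the 5′ end, the seed of miR-182 differs from that of miR-96 by A8C, and the seed of miR-183 differs from that of miR-96 by A2T. The seeds of miR-182 and miR-183 differ at 2 positions, T2A and A8C. All 3 members hold TGGCA at bases 3 to 7, read on this strand only, which 8 of 2853 entries (0.280%) hold there. Of those 8, the 4 that passed the filter on low values are the 3 members and miR-1271. Over the whole sequence, miR-182 and miR-183 are the most alike, with 18 of 23 aligned bases identical and a shared run of 8 bases, TGGTAGAA. miR-96 matched miR-182 at 12 of 23 bases and miR-183 at 13 of 23. No other entry lay within 1 mismatch of a member over at least 18 aligned bases, and the nearest differed at 5 bases for each member.

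All 3 members were far higher in hair matrix cells than in dermal papilla cells. Levels are given in RPM, read counts scaled to one fixed library total. The recovered library totals were 23904796 to 24693655 reads, and listed entries held 71.7% to 73.5% of them. A count of 3 reads, the limit that a count of 0 would allow, lies at 0.121 to 0.125 RPM, and every library had more reads than this for every member.

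miR-183 was at 6.82, 4.55 and 6.76 RPM in dermal papilla replicates 1, 2 and 3, and at 2004, 1931 and 1896 RPM in the hair matrix replicates. The lowest hair matrix library stood 278-fold above the highest dermal papilla library, and dermal papilla replicate 2 was the lowest of the 6. The means were 6.05 ± 1.29 RPM (SD, n = 3) and 1944 ± 54.9 RPM (SD, n = 3), a 321-fold difference. The change on the log2(RPM + 1) scale, where a low level in a group makes the change look smaller, was -8.13 ± 0.13 (SE, dermal papilla minus hair matrix, limma adjusted p = 1.98e-09).

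miR-182, the other abundant member, was at 6.44, 5.60 and 5.94 RPM in dermal papilla cells and at 1944, 1888 and 1872 RPM in hair matrix cells. The dermal papilla libraries lay closer together than for miR-183, and the cell types were as far apart. The means were 5.99 ± 0.425 RPM (SD, n = 3) and 1901 ± 38.02 RPM (SD, n = 3), a 317-fold difference. The log2 change was -8.09 ± 0.061 (SE, limma adjusted p = 2.39e-10).

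miR-96 was the least abundant member in every library. It was at 1.76, 0.710 and 1.36 RPM in dermal papilla cells and at 552, 571 and 565 RPM in hair matrix cells. Its dermal papilla values rest on 42, 17 and 33 reads, with exact 95% Poisson limits of 9.90 and 27.2 reads in replicate 2. These limits cover counting error only, since reads copied by PCR are not separate molecules. The means were 1.28 ± 0.529 RPM (SD, n = 3) and 563 ± 9.62 RPM (SD, n = 3), a 441-fold difference. The log2 change was -7.98 ± 0.17 (SE, limma adjusted p = 6.64e-09).

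**Figure D1:**
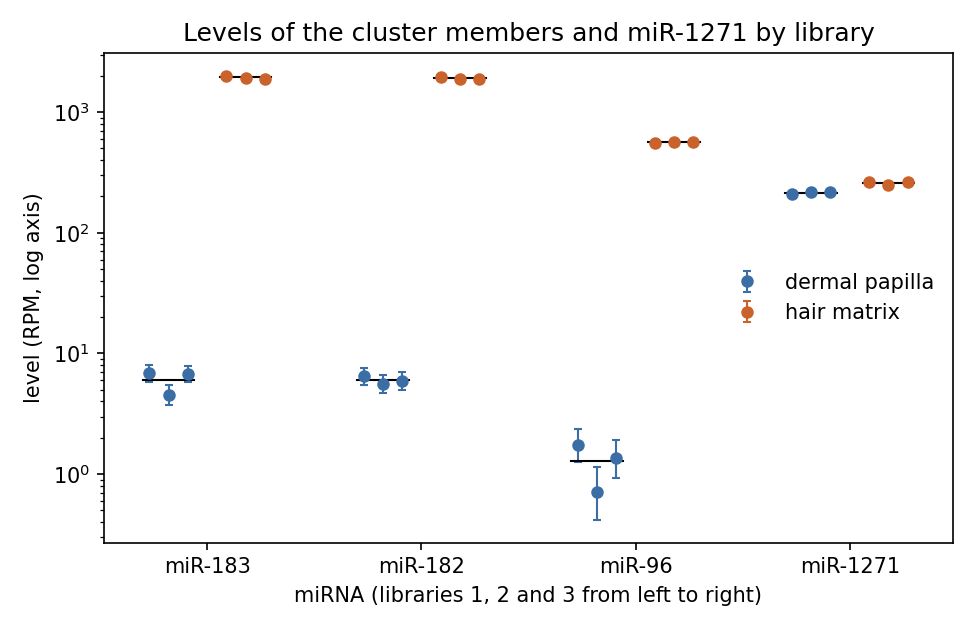
Level in RPM (log axis) of miR-183, miR-182, miR-96 and miR-1271 in the 3 dermal papilla (blue) and 3 hair matrix (orange) libraries; points are libraries, bars are exact 95% Poisson limits and black lines are group means. The 3 members separate the cell types, with miR-183 at 4.55 to 6.82 RPM against 1896 to 2004 RPM, whereas miR-1271 lies at 209 to 220 RPM and 249 to 262 RPM.

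An entry was called where the limma fit over 503 entries gave a change of 2-fold or more with an adjusted p under 0.05. All 3 members were called higher in hair matrix cells, against 19.9% of all entries tested. Without hair matrix replicate 1, 2 or 3, 64, 60 and 61 entries in place of 100 were called in this direction, and the members were called in each case. These fits still asked for 1 RPM or more in 3 libraries, so entries that reached it only in hair matrix cells were left out. Without dermal papilla replicate 1, 2 or 3, 101, 104 and 102 entries were called in this direction. All 3 members had libraries that did not overlap between cell types, against 42.3% of tested entries not overlapping in the same direction. The members' median log2 change was -8.09, and that of all tested entries was -0.01. Under 17 alternative settings, each member was called every time, with adjusted p up to 6.82e-07. All 3 members passed the filter on low values, which asked for 1 RPM or more in 3 or more libraries. miR-183 and miR-182 reached 1 RPM in all 3 dermal papilla libraries and miR-96 in 2 of 3.

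In hair matrix cells the cluster was among the better expressed miRNAs. miR-183 ranked 29 or 30 among the 757 entries with cattle names, miR-182 ranked 31 in each library, and miR-96 ranked 59 or 60. In dermal papilla cells the ranks were 233 to 257 for miR-183, 235 to 245 for miR-182 and 321 to 396 for miR-96. Together the members took 0.607% ± 0.00484 (SD, n = 3) of listed reads in hair matrix cells, against 0.00183% ± 0.000310 (SD, n = 3) in dermal papilla. The cluster sum differed by -8.38 on the log2 scale, and the exact two-sided permutation test gave p = 0.1, the smallest that 3 libraries against 3 allow. Among the 112 cattle-named entries with at least 100 RPM in hair matrix cells, miR-96 had the largest ratio between the cell types, with miR-183 at rank 4 and miR-182 at rank 5. Without dermal papilla replicate 2 the ranks were 2, 6 and 4 for miR-96, miR-183 and miR-182, and miR-200b came before miR-96, at 370-fold against 361-fold. The top rank over all 6 libraries also depends on the cut of 100 RPM. Below it, miR-10225a had a larger ratio, 587-fold, with means of 73.1 RPM in hair matrix and 0.124 RPM in dermal papilla cells. The latter is about the level of 3 reads. In these bulk samples, fewer cells of a type and less RNA per cell cannot be told apart.

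The make-up of the cluster's reads was nearly fixed across hair matrix libraries. miR-183 gave 44.5%, 44.0% and 43.8% of cluster reads there, and miR-182 gave 43.2%, 43.01% and 43.2%. miR-96 gave 12.3%, 13.0% and 13.03%. Reads are not corrected for how well each sequence is ligated, so a share of reads is not a share of molecules.

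The dermal papilla libraries held only 359, 260 and 341 cluster reads, so the make-up is known less well. miR-183 gave 45.4%, 41.9% and 48.1% of these reads and miR-182 gave 42.9%, 51.5% and 42.2%, on both sides of the hair matrix shares. miR-96 gave 11.7%, 6.54% and 9.68%, each below every hair matrix library. The exact 95% binomial intervals (Clopper-Pearson) of the miR-96 share were 8.56% to 15.5%, 3.85% to 10.3% and 6.76% to 13.3%. The intervals of replicates 1 and 3 include the hair matrix shares and that of replicate 2 does not. In the pooled counts, miR-96 had 92 of 960 cluster reads in dermal papilla cells and 41164 of 322614 in hair matrix cells.

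**Figure D2:**
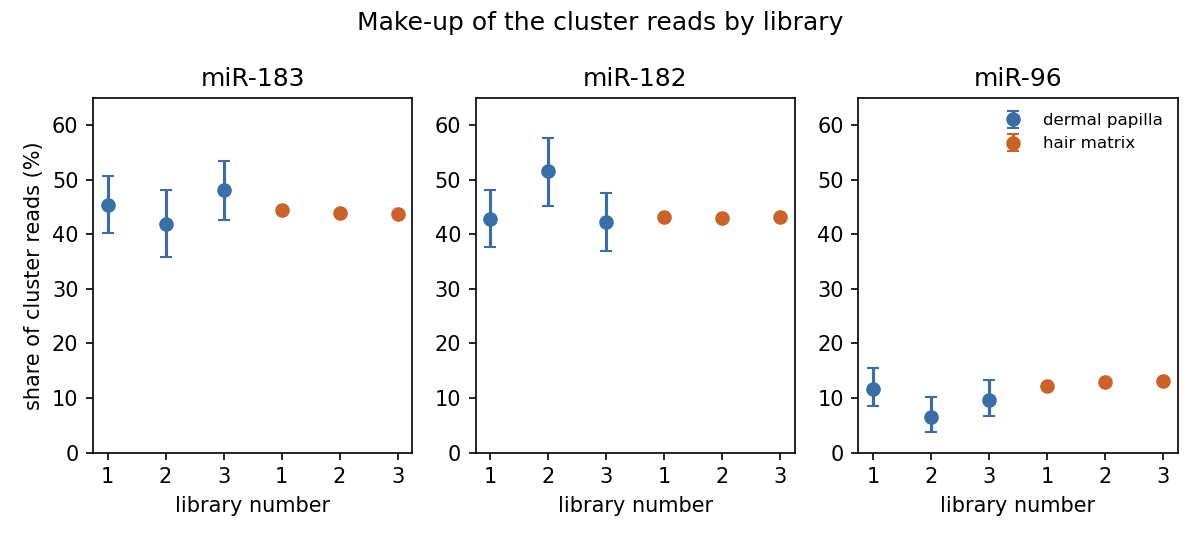
Share of the cluster's reads (%) given by miR-183, miR-182 and miR-96 in each dermal papilla (blue) and hair matrix (orange) library, with exact 95% binomial intervals, which in hair matrix cells are smaller than the points. The miR-96 share is 6.54% to 11.7% in dermal papilla cells and 12.3% to 13.03% in hair matrix cells.

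Ratios between members within a library do not depend on how libraries are scaled. The ratio of miR-183 to miR-182 was 1.06, 0.813 and 1.14 in dermal papilla cells and 1.03, 1.02 and 1.01 in hair matrix cells. The groups overlapped, with a log2 difference of -0.04 against within-group SDs of 0.26 and 0.01 (exact permutation p = 1). Without dermal papilla replicate 2 the difference was 0.10.

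The ratio of miR-96 to miR-182 was 0.273, 0.127 and 0.229 in dermal papilla cells and 0.284, 0.302 and 0.302 in hair matrix cells. The groups did not overlap, and dermal papilla replicate 1 lay close to the hair matrix libraries. The log2 difference was -0.57 (exact two-sided permutation p = 0.1, the smallest possible). Without dermal papilla replicate 2 it was -0.24. The ratio of miR-96 to miR-183 was 0.258, 0.156 and 0.201 against 0.275, 0.296 and 0.298, a log2 difference of -0.53 (exact permutation p = 0.1), and -0.35 without dermal papilla replicate 2. Over the 5 ratios tested, the Benjamini-Hochberg adjusted p of each of these 2 was 0.125, so neither difference passed. Both changed sign when 1 RPM was added to each value, to 0.11 and 0.15, since 1 RPM is close to the whole dermal papilla level of miR-96.

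Replicates spread more in dermal papilla cells, where the members are low. The coefficient of variation there was 21.4% for miR-183, 7.09% for miR-182 and 41.4% for miR-96, and read counting alone gives 8.30%, 8.33% and 18.1%. In hair matrix cells the values were 2.83%, 2.00% and 1.71%, against 0.459%, 0.464% and 0.854% from counting. For miR-182 in dermal papilla cells, the spread was thus no larger than that of counting, whereas for the other members it was at least 2 times as large.

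The seed of miR-96 was present in both cell types, as miR-1271, which is encoded outside the cluster, carries it. The values of miR-1271 were 209, 217 and 220 RPM in dermal papilla cells and 261, 249 and 262 RPM in hair matrix cells. The cell types did not overlap but differed little, with a log2 change of -0.26 ± 0.048 (SE, limma adjusted p = 0.00184), under 2-fold and so not called. A predicted entry with the same seed stayed under the filter on low values and was left out of the sums.

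Sums over a shared seed were formed after the values were seen. miR-96 and miR-1271 together were at 211, 218 and 221 RPM in dermal papilla cells and at 813, 819 and 826 RPM in hair matrix cells. They differed 3.79-fold (log2 difference -1.92, exact permutation p = 0.1, the smallest possible). miR-1271 gave 99.4% ± 0.254 (SD, n = 3) of this sum in dermal papilla libraries, and 31.4% ± 0.933 (SD, n = 3) in hair matrix libraries. In reads, the difference for the shared seed was thus far smaller than the 441-fold difference of miR-96 alone. Reads are not corrected for how well each sequence is ligated. The sums and shares over a seed, here and with miR-182 added, are therefore not those of molecules.

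Bases 2 to 7 are also shared by miR-182. With miR-182 added, the sum was 217, 223 and 227 RPM in dermal papilla cells and 2758, 2707 and 2698 RPM in hair matrix cells. It differed 12.2-fold (log2 difference -3.61, exact permutation p = 0.1). miR-182 gave 2.70% ± 0.237 (SD, n = 3) of it in dermal papilla libraries, and 69.9% ± 0.579 (SD, n = 3) in hair matrix libraries. No other entry carried the full seed of miR-182, and none carried bases 2 to 7 of miR-183, whose 321-fold difference is therefore also that of its seed in the listed entries.

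**Figure D3:**
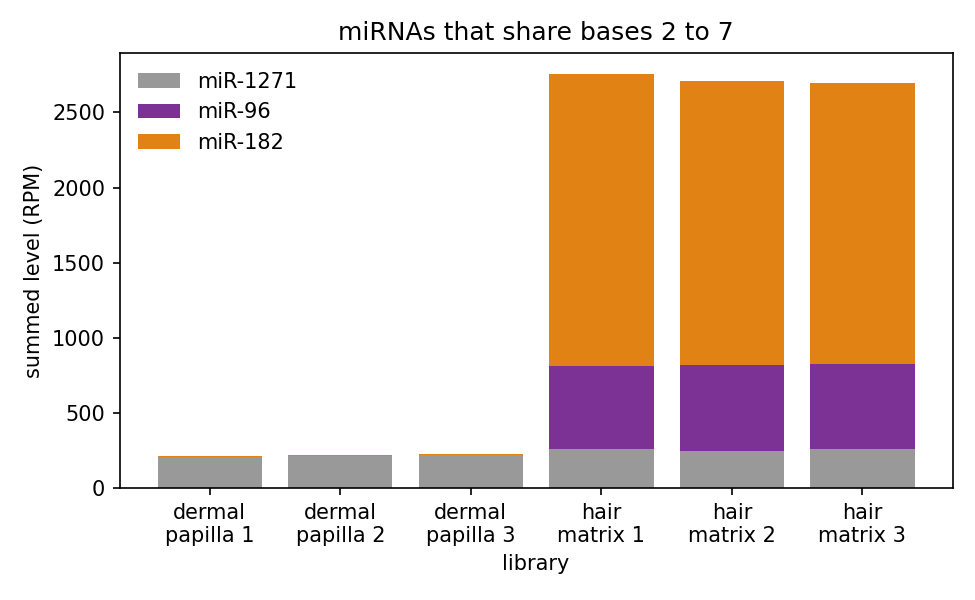
Summed level in RPM of the miRNAs that share bases 2 to 7 with miR-96 and miR-182, stacked by miRNA, in each library. The 3 dermal papilla bars reach 217 to 227 RPM and are nearly all miR-1271, and the 3 hair matrix bars reach 2698 to 2758 RPM and are mostly miR-182.

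The profiles most like that of the cluster were those of 4 members of the miR-200 family, which represses ZEB factors and marks epithelial cells. Likeness was measured as the Euclidean distance between centred log2(RPM + 1) profiles over the 6 libraries, taken to the members' mean profile. The nearest 5 cattle-named entries were miR-200c (0.187), miR-200a (0.200), miR-200b (0.305), miR-429 (0.325) and miR-184 (0.742), a miRNA of the corneal epithelium. The family's other member, miR-141, which is under 1 RPM in dermal papilla cells, lay farther away, at 1.95. The members themselves lay at 0.133 for miR-183, 0.205 for miR-96 and 0.226 for miR-182.

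The step between the cell types was of similar size in the cluster and in the miR-200 family. The dermal papilla mean was 0.315% of the hair matrix mean for miR-182, 0.311% for miR-183 and 0.227% for miR-96. In the family it was 0.342% for miR-200a, 0.235% for miR-200b, 0.340% for miR-200c, 0.345% for miR-141 and 0.306% for miR-429. All 5 family members were called higher in hair matrix cells, against 19.9% of all tested entries, and their median log2 change was -8.14. miR-141 was under 1 RPM in all dermal papilla libraries and passed the filter through hair matrix cells only.

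The ratio of the cluster sum to the miR-200 family sum was 0.200, 0.178 and 0.184 in dermal papilla cells and 0.213, 0.207 and 0.204 in hair matrix cells. The groups did not overlap, with dermal papilla cells lower by a log2 difference of -0.15 (exact permutation p = 0.1, adjusted over the 5 ratios 0.125). With 1 RPM added to each entry this difference changed sign, to 0.05, and the groups' exact permutation p was 0.4.

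For miR-184, miR-205 and miR-375, other epithelial miRNAs, the step between the cell types was smaller in these libraries. The dermal papilla mean was 0.557% of the hair matrix mean for miR-184, 2.88% for miR-205, a miRNA of stratified epithelia, and 1.55% for miR-375, known from neuroendocrine cells. All 3 were called higher in hair matrix cells, against 19.9% of all tested entries, and miR-375 passed the filter through hair matrix cells only. The ratio of the cluster sum to their sum was 0.0406, 0.0334 and 0.0369 in dermal papilla cells and 0.0742, 0.0745 and 0.0703 in hair matrix cells. The groups did not overlap, with a log2 difference of -0.99 (exact permutation p = 0.1, adjusted over the 5 ratios 0.125). It did not pass the test. With 10 RPM added to each entry it changed sign, to 0.60, and with means of log2(RPM + 1) values in place of sums it was -2.76. miR-184 makes up nearly all of that sum.

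**Figure D4:**
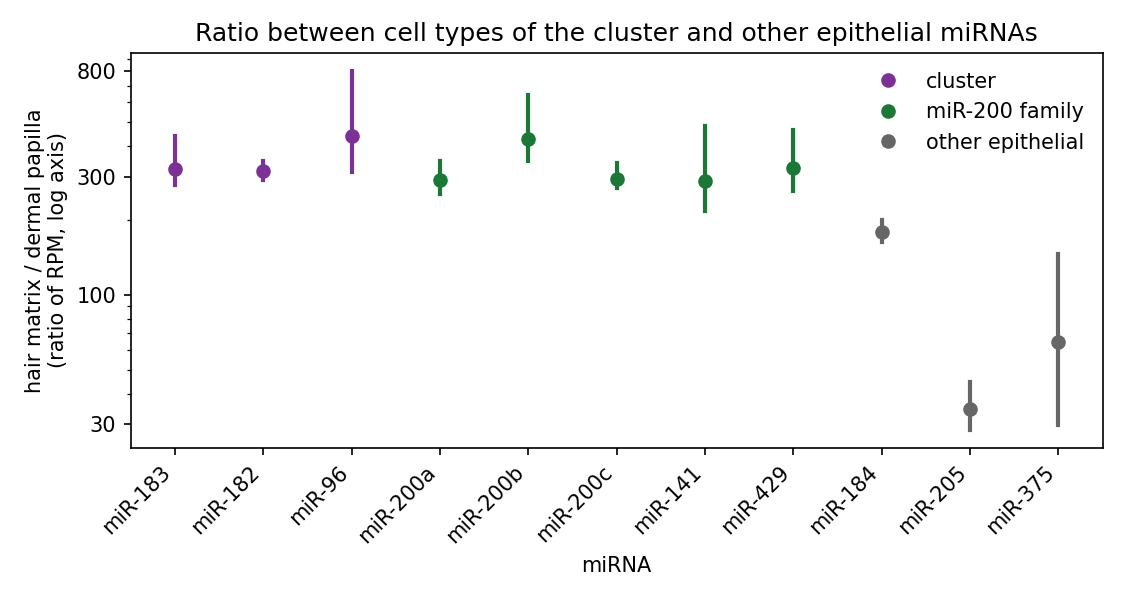
Ratio of hair matrix to dermal papilla level (RPM, log axis) for the cluster members, the miR-200 family and miR-184, miR-205 and miR-375; points are ratios of means and bars run from the lowest hair matrix over the highest dermal papilla library to the highest over the lowest. The cluster lies at 317 to 441, the miR-200 family at 290 to 426, and miR-205 lowest at 34.8.

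Markers of the cell types went in the direction of the labels. Their lists were chosen with earlier results of these data known, so the counts are no independent check of the labels. The 6 matched epithelial entries (the miR-200 family and miR-205) summed to 82.9 to 108 RPM in dermal papilla cells and to 22064 to 22261 RPM in hair matrix cells, and 6 of 6 were called higher in hair matrix cells, against 19.9% of tested entries. Of these 6, miR-141 passed the filter through hair matrix cells only. The epithelial list had 7 names, and miR-203 matched no entry by name. The 7 mesenchymal entries (miR-143, miR-145, miR-199a, miR-199b, miR-214 and miR-10b) summed to 95101 to 97851 RPM in dermal papilla cells and to 1290 to 1530 RPM in hair matrix cells, and 7 of 7 were called higher in dermal papilla cells, against 25.2% of tested entries.

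The dermal papilla library with the least of the cluster was also the one with the least of the miR-200 family. Among the dermal papilla libraries, replicate 2 was lowest for 3 of 3 cluster members and for 6 of the 8 entries of the miR-200 family, miR-184, miR-205 and miR-375, against 39.2% of all tested entries. Replicate 3 was lowest for the other 2, miR-141 and miR-375. miR-141 went against the rest of its family, being highest in replicate 2, at 0.585 RPM on 14 reads. The cluster sum was 15.02, 10.9 and 14.1 RPM in dermal papilla replicates 1, 2 and 3, and the miR-200 family sum was 75.1, 60.9 and 76.3 RPM. In hair matrix cells the mesenchymal entries were at 1.03% to 1.76% of their dermal papilla means, and replicate 3 was highest for 7 of 7. The share of all tested entries that were highest in that replicate was not counted, so this count has no background. The part of these other cell type markers in the cluster's level was not tested.

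Other cell types in which the cluster or its companions are known were checked by their miRNAs. Of 5 tested sensory and neural entries matched by name, 2, miR-204 and miR-129-3p, were called higher in dermal papilla cells, against 25.2% of all tested entries. The other 3, miR-7, miR-219 and miR-9-5p, were not called in limma, with log2 changes of -0.49, -0.33 and 0.26. A tested entry for miR-129-5p has a joined name that the match missed, so it is in no list's count or sum. It was also called higher in dermal papilla cells (log2 change 2.78, limma adjusted p = 1.35e-08). Its level was 41.6 to 43.4 RPM there and 5.12 to 5.51 RPM in hair matrix cells. The matched entries summed to 3172 to 3354 RPM in dermal papilla cells and to 4172 to 4883 RPM in hair matrix cells, mostly miR-7, and miR-153 was at 0 in all hair matrix libraries. The 3 neuroendocrine and Merkel cell entries matched by name went different ways. miR-375 was called higher in hair matrix cells, at 10.8 ± 1.75 RPM (SD, n = 3). miR-129-3p was called higher in dermal papilla cells, and miR-7 was not called. miR-129-5p, which belongs to this list too but was missed by the match, was called higher in dermal papilla cells. The matched entries summed to 3053 to 3234 RPM in dermal papilla cells and to 4145 to 4853 RPM in hair matrix cells, again mostly miR-7. The melanocyte miRNA miR-211 was at 0 in all dermal papilla libraries, and with miR-204 the list summed to 73.9 to 99.4 RPM there and to 2.41 to 2.83 RPM in hair matrix cells. Most of the hair matrix sum was miR-204, at 2.51, 2.41 and 2.79 RPM. miR-211 stayed under the filter on low values, so its 0 in dermal papilla cells marks no contrast. Blood and immune entries summed to 20.3 to 22.97 RPM and 9.11 to 12.5 RPM, endothelial entries to 3.68 to 4.70 RPM and 2.57 to 4.01 RPM, and muscle entries to 58.4 to 72.9 RPM and 40.9 to 42.6 RPM, in dermal papilla and hair matrix cells. The 2 tested muscle entries were called in opposite directions, miR-1 higher in dermal papilla cells (log2 change 1.34) and miR-499 higher in hair matrix cells (-3.64).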

How the data were processed

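Small RNA of 3 dermal papilla and 3 hair matrix libraries was analysed. Libraries were made with a TruSeq small RNA kit, per the labels' protocols. Trimmomatic, DESeq 1.20.0 and HISAT2 2.2.1.0 are listed, with no roles, per the submitters' processing notes. Not given in the sources used here are the build, the miRNA reference and the treatment of reads with several matches. The deposited values, called TPM by the authors, are RPM: within a tolerance of 0.001 read, 100% of values are whole multiples of 1 read, from which whole reads were recovered. All columns of values were used. Genome positions were not used here.

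In limma 3.58.1 under R 4.3.3, log2(RPM + 1) was modelled on cell type alone for the 503 entries that reached 1 RPM in 3 or more libraries, using a variance trend. P-values were adjusted over these 503 by the Benjamini-Hochberg method. edgeR 4.0.16 and DESeq2 1.42.0 on the recovered reads were alternatives, besides other pseudocounts, filters, scalings, no trend, the replicate number as a block and leaving out each library. Ratios and sums had exact permutation tests. The same fit was checked on simulated data whose changes were smaller than those of the members, so that check does not cover changes of their size. No pair of replicates agreed within counting noise (chi-square per degree of freedom 26.6 to 76.8).

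The named miRNAs were the members, entries sharing a seed or nearly all bases with them, the miR-200 family, miR-184, miR-205 and miR-375, the 5 nearest profiles, and the main entries of marker lists. miR-10225a was named after its value was seen. The members and lists were chosen with earlier results of these data known.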

Additional observations from a re-analysis of the deposited data

How the results depend on the processing

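Each of the 3 members stayed called and higher in hair matrix cells under all 17 alternatives, edgeR, DESeq2 and the replicate block included. Log2 changes ran from -8.48 to -6.93 for miR-183, -8.80 to -5.67 for miR-96 and -8.41 to -6.90 for miR-182, the smallest with a pseudocount of 10. With that pseudocount 40 entries, and with a filter of 10 RPM 47 entries, were called higher in hair matrix cells, and 60 to 104 when a library was left out. The filter still asked for 3 libraries then, which removed entries seen only in hair matrix cells when a hair matrix library was left out. The cluster sum changed by -8.09 and -6.68 with pseudocounts of 1 and 10. With pseudocounts of 1 and 10, the log2 difference in the ratio of miR-96 became 0.11 and 1.23 to miR-182 and 0.15 and 1.26 to miR-183. That of the cluster became 0.047 and 0.78 to the miR-200 family, and -0.70 and 0.60 to miR-184, miR-205 and miR-375. A pseudocount near or above the dermal papilla levels lifts the lower sum or member most. With means of log2 values in place of sums, the latter 2 differences were -0.27 and -2.76. The ratio of miR-183 to miR-182 differed by -0.14 to 0.10 when a library was left out. Deviations of same-numbered libraries correlated at 0.14, 0.08 and -0.27, and those of differently numbered libraries at -0.43 to 0.39. With 3 libraries in each group, these values cannot settle whether the libraries were paired. With the replicate block the ratio differences, such as -0.57 for miR-96 to miR-182, are the same by construction, and 3 pairs cannot give p below 0.25. Depth limits the make-up of the cluster in dermal papilla cells, where miR-96 had 17 to 42 reads a library.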
